A study of Homo sapiens with 18 samples.

Results

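The 4 names followed here in the table of small RNA reads were HSALNG0085924, LINC02260, lnc-C11orf24-4 and lnc-WISP1-2, each a long noncoding RNA (lncRNA) entry whose counts were lower after depletion of SSB and in which no small RNA row had been seen to carry the reads. They were chosen by these names, because of those lower counts, so the siSSB against control values below are a description, and neither they nor any count of calls among them tests anything about the 4 entries. The names cover 6 rows of 175935 in the table, of which 155223 are typed as lncRNA and 139113 hold at least 1 count. The 3 rows named lnc-WISP1-2 had identical counts, which leaves 4 distinct sets of counts.

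The cells were HEK293T, a human embryonic kidney line, transfected for 48 h with an siRNA against SSB (siSSB) or with a scrambled siRNA (control). Small RNA was taken from whole cells (total), nuclei (nuc) or cytoplasm (cyto), and the libraries are those labelled as treated with PNK. Each of the 6 groups had 3 libraries, which the methods of the study describe as biological replicates processed on the same day. Column sums ran from 47662310 to 89632050 in total libraries, from 98928007 to 158244813 in nuc libraries and from 21565995 to 44712500 in cyto libraries, reads in overlapping rows being counted in each. No row is named SSB, so its depletion could not be checked in these libraries. Of 10 nuclear marker RNAs, 8 were higher in nuc than in cyto control libraries and 1 was lower (edgeR quasi-likelihood test). The lower one was RN7SK, at a log2 fold change of -1.22 ± 0.29 (SE, edgeR adjusted p = 0.00144). Of 9 cytoplasmic markers 6 were lower and 2 higher by the same test. Among all 26774 rows tested, 2465 were higher and 3777 lower in nuc.

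The 4 entries differ in annotation. On hg38, lnc-C11orf24-4 is a row of 502 nt on the minus strand of chromosome 11 (68459749 to 68460250), which overlaps no GENCODE 44 gene and lies 481 nt from the start of PPP6R3, a gene for a regulatory subunit of protein phosphatase 6. HSALNG0085924 is a row of 6952 nt on the plus strand of chromosome 11 (77639641 to 77646592), also in no GENCODE gene, 1847 nt from the start of CLNS1A. The other two are not unannotated. LINC02260 (chromosome 4, 54603188 to 54607156, minus strand, 3969 nt) is a GENCODE lncRNA gene with 2 exons, which cover 55.8% of the row. The longest lnc-WISP1-2 row (chromosome 8, 133572146 to 133573886, plus strand, 1741 nt) lies 97.9% within the single exon of ST3GAL1-DT, a lncRNA gene divergent to ST3GAL1, whose start is 220 nt away.

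SSB encodes La, an RNA chaperone that binds the uridine-rich 3′ end left on RNAs newly made by RNA polymerase III (Pol III). Pol III makes tRNAs, vault RNAs, Y RNAs and other short RNAs. On tRNA genes it is recruited by internal promoter elements, the A box and the B box, and it stops at a run of T. Long noncoding RNAs are usually made by RNA polymerase II, but a catalogued lncRNA interval can also hold copies of small RNA genes and of repeats derived from them.

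Stretches of 3 of the rows are printed here because they resemble Pol III genes or each other. The counts are per row and do not show whether any read fell in a printed stretch. All are hg38 sequence, 5′ to 3′ on the strand of the row. Capitals mark the B box-like motif GNTCNANNC and, in lnc-C11orf24-4, the run of T that follows it. The first is chr11:68460135-68460219 (minus strand), and below it is the matching part of a tRNA gene for alanine at chr6:26571864-26571935 (minus strand).
lnc-C11orf24-4: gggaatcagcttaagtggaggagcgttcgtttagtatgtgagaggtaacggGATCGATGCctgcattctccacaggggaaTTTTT
tRNA-Ala-AGC-1-2: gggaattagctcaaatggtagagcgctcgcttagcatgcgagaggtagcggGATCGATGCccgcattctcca
The next pair, chr11:77643021-77643120 (plus strand) and chr4:54603563-54603662 (minus strand), lies in and around a stretch that HSALNG0085924 and LINC02260 have in common.
HSALNG0085924: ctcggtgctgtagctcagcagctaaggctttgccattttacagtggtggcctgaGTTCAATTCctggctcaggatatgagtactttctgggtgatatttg
LINC02260: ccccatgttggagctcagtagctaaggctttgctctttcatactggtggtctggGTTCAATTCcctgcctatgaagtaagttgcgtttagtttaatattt

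Within lnc-C11orf24-4, 61 of 72 aligned bases (84.7%) matched tRNA-Ala-AGC-1-2, with the motif at the same place in both. The run of 5 T began 20 nt after the motif. In all, 29 tRNA rows matched this stretch (blastn, E-value up to 1e-05), all of them alanine or undetermined types. A match at least as strong was found in 3 of 3172 lncRNA rows of 452 to 552 nt (0.095%), counting lnc-C11orf24-4 itself. The 72-nt stretch had 19 other matches in the genome, of which the closest was 84.7% identical (61 of 72 bases). That search did not leave out tRNA genes, so its matches can include the tRNA rows above. The other 3 rows had no tRNA match on their own strand outside Alu-like sequence at that E-value. Matches on the opposite strand were left out, here and in the 3172 rows.

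HSALNG0085924 and LINC02260 shared a stretch of 266 aligned nt with 215 identical bases (80.8%), on the strand of each row and outside Alu-like sequence. It spans 77642820 to 77643084 in the first and 54603599 to 54603864 in the second, where it falls in a GENCODE exon. The pair also shared a longer stretch of 527 aligned nt (79.9% identical), but in HSALNG0085924 this lies within a row that held 0 counts, which is why the shorter one is shown. The stretch shown also had to hold the motif in both copies, and the printed 100 nt were placed around it. Its presence in both is thus part of the choice. The printed 100 nt of HSALNG0085924 had 249 other matches in the genome, the best with 84 of 97 bases identical (86.6%), and those of LINC02260 had 98, the best with 79 of 96 (82.3%). The next run of at least 4 T began 43 nt after the motif in HSALNG0085924 and 76 nt after it in LINC02260. The motif by itself is common. On the strand of the row it occurred in 29.7%, 90.9% and 97.9% of lncRNA rows within 10% of the length of lnc-C11orf24-4, LINC02260 and HSALNG0085924, and on either strand in 47.7%, 98.8% and 99.9%. The longest lnc-WISP1-2 row held it once on its own strand, as did 65.0% of rows of its length, or 87.0% on either strand. A motif match describes the letters and not a binding site.

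No row of at most 500 nt lay in or across any of the 4 entries. The largest share of the counts held by 1 such row inside a member was thus 0%. The entries had been chosen for holding no small RNA that carries their counts, so this outcome was fixed by that choice. lnc-C11orf24-4 overlapped no other row. LINC02260 lies within NONHSAG037962.2, a row of 4050 nt with identical counts (330 over the 18 libraries). Of the 195 counts of lnc-WISP1-2, 4 (2.05%) fell in AC103706.1, a row of 729 nt over its 3′ part, which places the rest before 133573158.

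**Figure D1:**
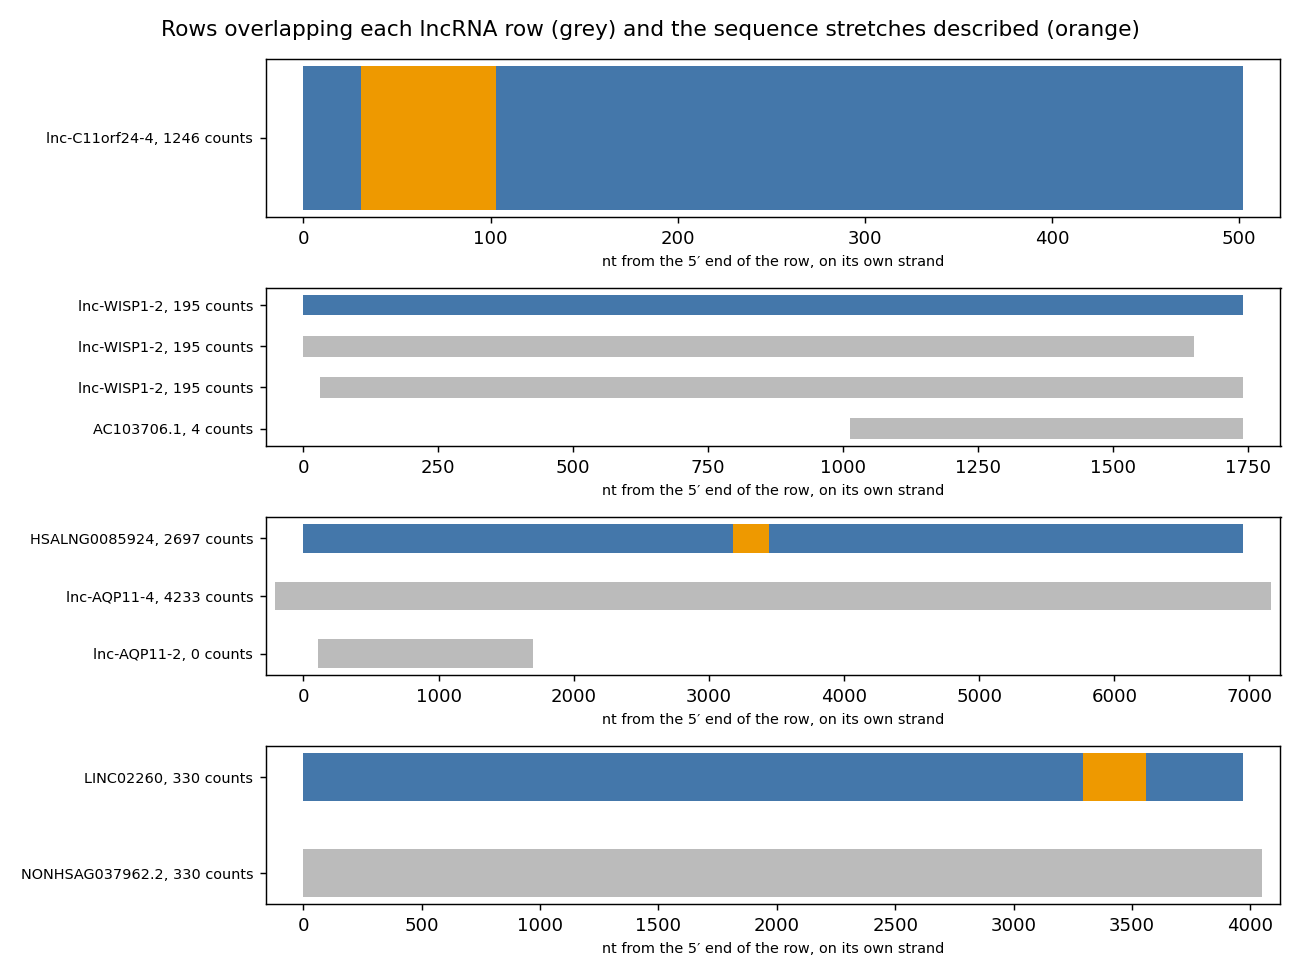
Each panel draws 1 lncRNA row (blue) to scale in nt from its 5′ end, with the rows that overlap it in grey, each labelled with its counts over 18 libraries. Orange marks the stretch like tRNA-Ala in lnc-C11orf24-4 and the stretch shared by HSALNG0085924 and LINC02260. The bar of lnc-AQP11-4 is cut at the panel edge, since that row is 283062 nt long, and lnc-AQP11-2 held 0 counts.

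HSALNG0085924 could be narrowed further. The row lnc-AQP11-2, 1589 nt within its 5′ part, held 0 counts, so its 2697 counts come from the 5254 nt after that row or the 109 nt before it. It lies within lnc-AQP11-4, a row of 283062 nt with 4233 counts, 63.7% of which are those of HSALNG0085924. Summed without scaling for library size, the counts of lnc-AQP11-4 outside HSALNG0085924 were not lower with siSSB in any fraction. They were 217 in control and 267 in siSSB total libraries, 370 and 466 in cyto, and 107 and 109 in nuc. Within HSALNG0085924 the same sums were 470 and 181 in total, 1644 and 372 in cyto, and 6 and 24 in nuc. The lower sums of the longer row in total and cyto libraries thus lay within HSALNG0085924.

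**Figure D2:**
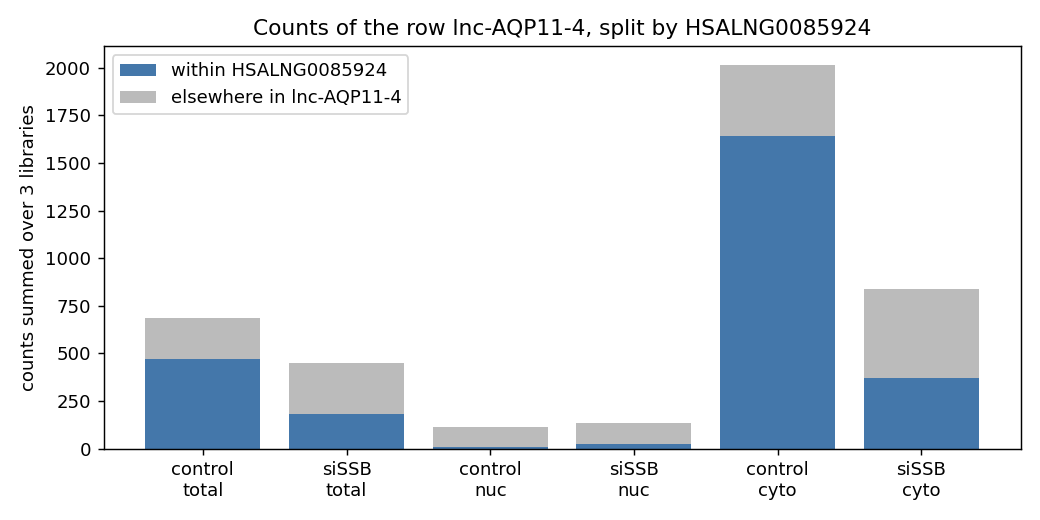
Counts of the row lnc-AQP11-4, summed without scaling over the 3 libraries of each group, split into those within HSALNG0085924 (blue) and those elsewhere (grey). The blue part goes from 1644 to 372 in cyto and from 470 to 181 in total, while the grey part goes from 370 to 466 and from 217 to 267.

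Reads that match several places could still be placed in a look-alike. Exact words of 30 nt shared with rows of at most 500 nt elsewhere made up 8.93% of HSALNG0085924, 8.25% of lnc-C11orf24-4 and 4.06% of LINC02260, and none of lnc-WISP1-2. None of the rows sharing such words was a tRNA row. Most were copies of the signal recognition particle RNA family, to which Alu repeats are related: 3450 of 3854 for HSALNG0085924, 615 of 658 for lnc-C11orf24-4 and 946 of 1070 for LINC02260. Among all rows sharing such words, the one with the most reads held 2911 counts for HSALNG0085924, 18 for lnc-C11orf24-4 and 4739 for LINC02260. With words of 20 nt, 3 tRNA rows shared words with HSALNG0085924 and 2 with lnc-C11orf24-4, and the sharing row with the most reads held 422091 and 27169 counts. The rows with the most 30-nt words in common had few reads. For HSALNG0085924 these were 3 such copies with 0 to 1 counts and 41 to 42 words, for lnc-C11orf24-4 3 copies with 0 to 1 counts and 11 words, and for LINC02260 the lncRNA rows lnc-CST6-2, lnc-TGFB1-5 and lnc-OAZ3-13 with 0, 4 and 2 counts. How reads with several positions were placed is not given in the sources used here, and its part in these counts was not tested.

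lnc-C11orf24-4 was lower with siSSB in all 3 fractions. Control counts were 172, 125 and 116 in total, 133, 121 and 274 in cyto and 25, 38 and 25 in nuc. With siSSB they were 13, 17 and 36 in total, 35, 44 and 41 in cyto and 17, 8 and 6 in nuc. The groups did not overlap in any fraction on the scaled values (CPM, the count relative to the library size after TMM scaling, edgeR's correction for composition). Here and below, the share of all rows tested whose groups also separate was not counted, and the entries were chosen for being lower with siSSB. The log2 fold change was -2.78 ± 0.39 (SE, n = 3 per group) in total, -2.13 ± 0.27 in cyto and -1.57 ± 0.40 in nuc. The tRNA-Ala-AGC-1-2 row it resembles had 52, 40 and 68 counts in control and 63, 120 and 60 in siSSB total libraries, at a log2 fold change of 0.43 ± 0.27 (edgeR adjusted p = 0.48). In cyto it had 223, 318 and 185 in control and 269, 98 and 185 with siSSB, at -0.59 ± 0.42 (edgeR adjusted p = 0.843), and in nuc 8, 7 and 7 against 4, 2 and 4, below the filter. This row therefore passed the threshold in neither total nor cyto, and its nuclear counts were lower with siSSB.

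lnc-WISP1-2 had the fewest counts. In total RNA it had 61, 23 and 21 in control and 2, 1 and 2 in siSSB libraries, and the groups were far apart, at a log2 fold change of -4.46 ± 0.66. The summed counts were 105 and 5, a ratio of 23.2 after scaling. In cyto it had 10, 16 and 28 in control and 0, 10 and 1 in siSSB libraries (-2.27 ± 0.78). This rested partly on 1 library, since the value was -4.93 without siSSB cyto replicate 2. In nuc it had 8, 3 and 5 in control and 3, 0 and 1 with siSSB, too few to pass the filter on low counts.

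HSALNG0085924 was lower with siSSB in total and cyto and higher in nuc. It had 165, 136 and 169 counts in control and 39, 72 and 70 in siSSB total libraries (-1.53 ± 0.26, or -0.95 with library size alone), and 670, 388 and 586 against 114, 78 and 180 in cyto (-2.23 ± 0.37). In nuc the counts were 2, 3 and 1 in control and 9, 10 and 5 with siSSB. The groups did not overlap in any of the 3 fractions, but the nuclear counts were few and did not pass the filter.

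LINC02260 was lower with siSSB in cyto, where it had 88, 44 and 73 counts in control and 13, 10 and 19 with siSSB (-2.36 ± 0.35). In total RNA the groups overlapped, with 21, 13 and 15 in control and 6, 11 and 16 with siSSB (-0.71 ± 0.41). In nuc it had 1, 0 and 0 in control and 0 in each siSSB library. The description of this entry as lower after SSB depletion thus rests on the cytoplasm.

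**Figure D3:**
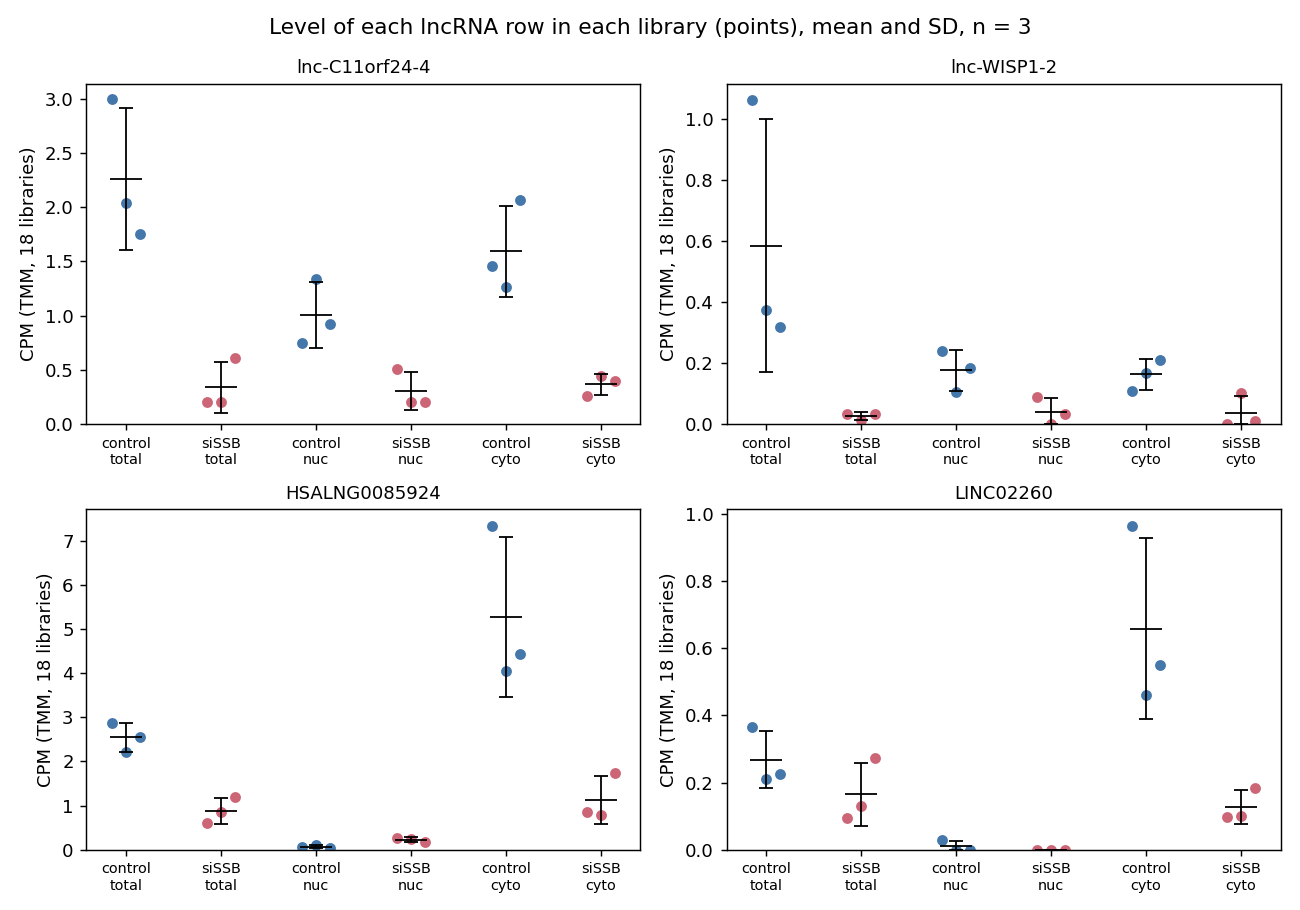
CPM of each row in each library (points, blue for control and red for siSSB) on the TMM scale common to the 18 libraries, with the mean and SD of the 3 libraries of a group; lower bars stop at 0. lnc-C11orf24-4 and lnc-WISP1-2 are lower with siSSB in each fraction, whereas HSALNG0085924 and LINC02260 are highest in control cyto.

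As these contrasts chose the entries, the outcome of the following calls was fixed by that choice, and they are given beside the background only. At an adjusted p under 0.05, 3 of the 4 were called lower in total (all but LINC02260), where 0.972% of 13883 rows tested were, and 3 in cyto (all but lnc-WISP1-2), where 0.27% of 18921 were. In nuc, 1 of the 4 was tested and 0 were called, against 0.349% of 6873 rows (959 rows had an unadjusted p under 0.05). Rows over 500 nt, such as these, were 68 of the 135 rows called lower in total RNA (50.4%, with 51 distinct sets of counts), 27 of 51 in cyto (52.9%) and 4 of 24 in nuc (16.7%). Among all rows tested they made up more, at 87.0%, 89.1% and 82.7%. Of 15 RNAs of a Pol III list, 12 were tested in each fraction, and 3 in total, 2 in nuc and 2 in cyto were lower and 0 higher. Their median log2 fold change was -0.34, -0.61 and -0.04, against -0.01, 0.08 and 0.01 over all rows tested. Vault RNA VTRNA1-1 was lower by -2.25 ± 0.34 in total (edgeR adjusted p = 0.0128), -1.80 ± 0.27 in nuc (0.00474) and -1.83 ± 0.28 in cyto (0.0342). RNY1, a Y RNA, was at -0.34 ± 0.33 in total and RN7SK, the nuclear RNA that holds P-TEFb inactive, at -0.02 ± 0.28, neither past the threshold (edgeR adjusted p = 0.666 and 0.985).

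The distribution between nucleus and cytoplasm is also given as a description. Its contrast was not the one that chose the entries, but it uses the same cyto libraries, and a row lower with siSSB in cyto had to have counts in control cyto. HSALNG0085924 and LINC02260, with too few nuclear counts to be tested in knockdown nuc, passed the filter here through cyto, where they are high. HSALNG0085924 was lower in nuc than in cyto by a log2 fold change of -6.12 ± 0.49 in control cells and -2.17 ± 0.42 in siSSB cells, with no overlap of the groups. LINC02260 had 205 cyto counts and 1 nuc count in control libraries, and its scaled ratio was 52.0, with a 95% exact interval of 9.23 to 2060 for counting error. Its fitted value of -5.53 ± 0.77 rests on that 1 count and was -8.60 without control nuc replicate 1, the library that holds it. In siSSB libraries all 3 nuc values were 0, and against a floor of 3 counts per library it was at least 1.33-fold lower in nuc. These 2 were called lower in nuc in both kinds of cell, as were 14.1% of rows tested in control and 14.5% in siSSB cells.

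For lnc-C11orf24-4 the nuc and cyto groups overlapped, at -0.54 ± 0.34 in control and -0.16 ± 0.41 in siSSB cells. lnc-WISP1-2 was at 0.24 ± 0.52 in control cells, also with overlap, and its 11 cyto and 4 nuc counts in siSSB cells did not pass the filter. The values of these 2 rows depend on the scaling. TMM centres each comparison near the typical row, and with library size alone the median row was -4.34 in nuc against cyto in control cells, in place of -0.27, and -3.96 in place of -0.19 in siSSB cells. Under library size alone lnc-C11orf24-4 was at -4.68 and lnc-WISP1-2 at -3.86 in control cells, so that the direction of lnc-WISP1-2 turned. HSALNG0085924 was at -10.21.

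**Figure D4:**
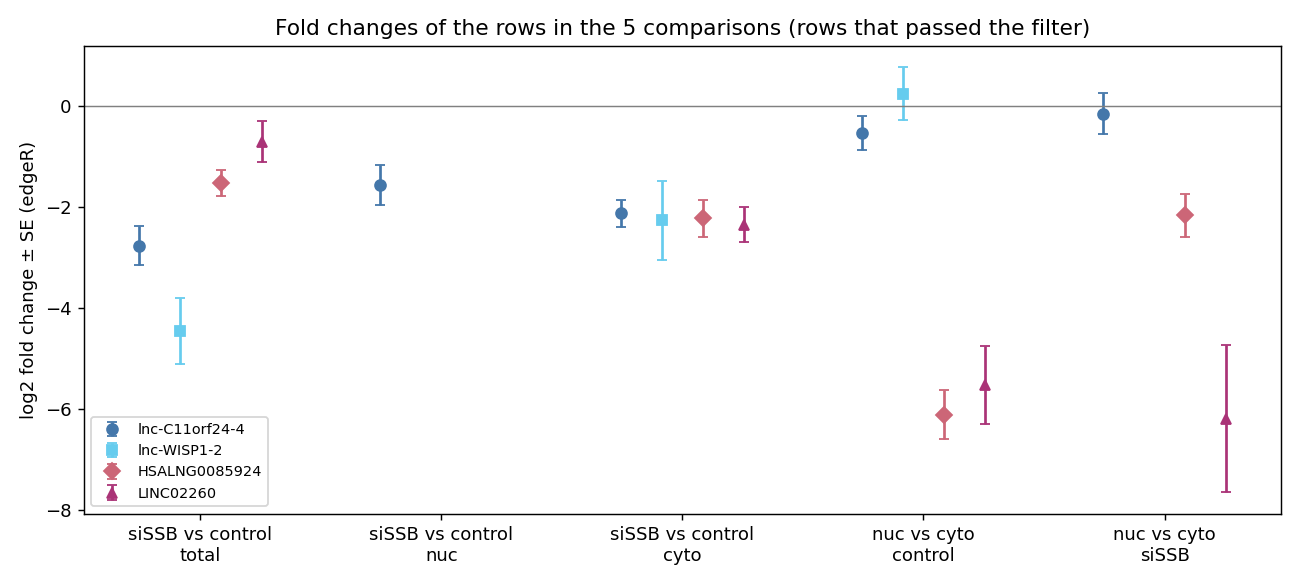
Log2 fold change ± SE (edgeR, 3 libraries per group) of each row in the 5 comparisons, for rows that passed the filter on low counts. In nuc against cyto, HSALNG0085924 and LINC02260 lie between -2.17 and -6.20 (the last fitted against 0 nuc counts and no bound), and lnc-C11orf24-4 and lnc-WISP1-2 between -0.54 and 0.24.

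On the TMM scale common to the 18 libraries, lnc-C11orf24-4 was highest in control total (2.26 ± 0.65 CPM, SD, n = 3), then control cyto (1.60 ± 0.42) and control nuc (1.00 ± 0.30), neighbours whose ranges overlapped. All 3 siSSB groups, which overlapped each other, lay below them (0.30 to 0.37 CPM on average). The order turned with the scaling, since control cyto came first, without overlap with control total, under library size (5.66 ± 0.45 against 1.79 ± 0.13 CPM) and under the sum of rows of at most 500 nt (49.3 ± 3.9 against 26.0 ± 1.2 CPM). lnc-WISP1-2 was highest in control total (0.585 ± 0.415 CPM), apart from control nuc (0.177 ± 0.067) and control cyto (0.163 ± 0.051), which overlapped. Under library size control cyto came first instead (0.587 ± 0.177 against 0.437 ± 0.211 CPM), with overlapping ranges. HSALNG0085924 was highest in control cyto (5.27 ± 1.80 CPM), followed without overlap by control total (2.55 ± 0.33), then siSSB cyto (1.13 ± 0.54) and siSSB total (0.883 ± 0.290), which overlapped. LINC02260 was also highest in control cyto (0.658 ± 0.269 CPM), above control total (0.268 ± 0.085), which overlapped siSSB total (0.165 ± 0.094). Control cyto stayed first for HSALNG0085924 and LINC02260 under the other scalings, but the order below it turned. Under library size siSSB cyto came second, above control total without overlap (4.69 against 2.07 CPM for HSALNG0085924, 0.528 against 0.212 CPM for LINC02260). It also came second under the sum of rows of at most 500 nt, with overlap for HSALNG0085924.

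HSALNG0085924 and LINC02260, and likewise lnc-C11orf24-4 and lnc-WISP1-2, had similar profiles over the 18 libraries, given as a description. Log2 CPM of HSALNG0085924 and LINC02260 correlated at r = 0.939 and that of lnc-C11orf24-4 and lnc-WISP1-2 at 0.882, while r across the pairs was 0.226 to 0.498 (n = 18). These libraries fall into 6 groups, and the points share library and depth. They include the siSSB libraries whose lower counts chose the entries, so part of each r follows from that choice. LINC02260 held 1, 0 and 0 counts in control nuc and 0 in each siSSB nuc library, so its nuc values lie at or near a floor. How far its r depends on that floor was not tested. The rows most like HSALNG0085924 were tRNA-Ser-TGA-1-1 (0.971), lnc-DNAJC12-1 (0.971) and tRNA-Lys-CTT-1-10 (0.962). The rows tRNA-Ser-TGA-1-1 and lnc-DNAJC12-1 had nearly the same counts over the 18 libraries (179032 and 179080) and may hold the same reads. Those most like LINC02260 were tRNA-Lys-TTT-2-2 (0.971), tRNA-Lys-CTT-1-10 (0.969) and lnc-RNASE4-1 (0.966). For lnc-C11orf24-4 they were tRNA-Lys-TTT-9-1 (0.915), tRNA-Leu-TAG-2-1 (0.911) and lnc-C1QTNF6-1 (0.902). For lnc-WISP1-2 they were lnc-C11orf24-4 and 2 rows named SNAR-A14 (0.860 and 0.858), a Pol III RNA of the snaR-A family. These rows had the highest r among 4295 to 4297 rows per entry, each with a mean of at least 50 counts. How many of those were tRNA rows was not counted. The values that follow reuse the libraries that picked the rows, so they test nothing. Within groups, after removing group means, r between each entry and its most similar row was 0.621 for lnc-C11orf24-4, 0.711 for HSALNG0085924, 0.800 for LINC02260 and 0.517 for lnc-WISP1-2. Over the 9 control libraries alone it was 0.89, 0.986, 0.968 and 0.625 in the same order.

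**Figure D5:**
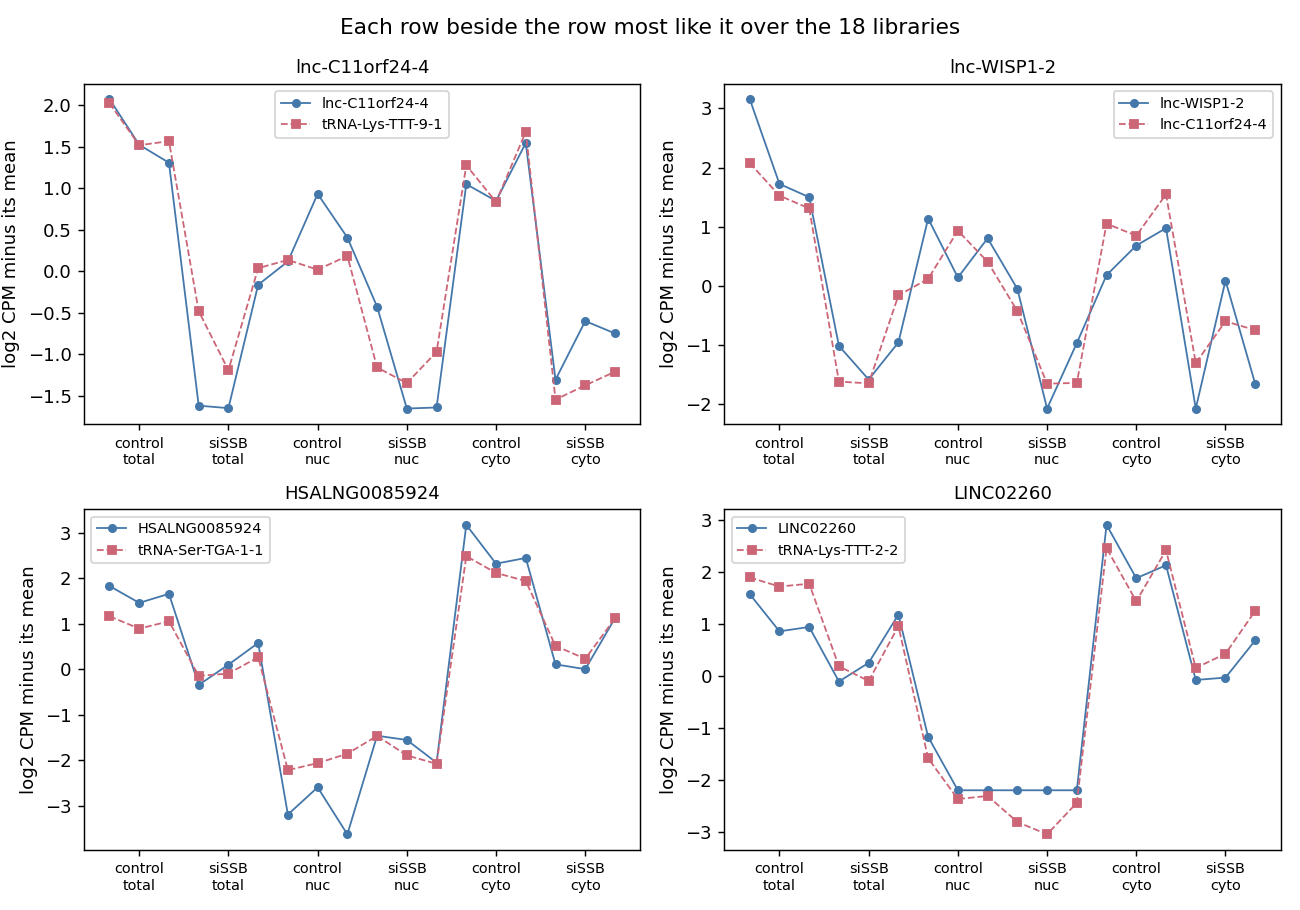
Log2 CPM minus its mean over the 18 libraries, for each row (blue) and the row with the highest correlation to it (red, dashed), with the 3 libraries of a group side by side. HSALNG0085924 and LINC02260 follow tRNA rows that are lowest in nuc, and lnc-WISP1-2 follows lnc-C11orf24-4 (r = 0.882, or 0.625 in control libraries alone).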

How the data were processed

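Small RNA was sequenced from HEK293T cells in 18 libraries. The deposited table holds whole-number counts of reads per RNAcentral row, made by the authors with Bowtie2 and bedtools on hg38 per the labels (submitters' processing notes, no versions given), with 25 nt added to each side of a row. Reads in overlapping rows are counted in each. Strand and the handling of reads with several positions are not given in the sources used here. The members and lists were chosen with earlier results of these data known, and named rows follow a rule: overlapping rows holding at least 10% of a member's counts, the 3 rows of at most 500 nt with most shared words, and the 3 rows with the highest correlation. The shared stretch and the motif were picked after the sequences were seen.

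Counts were tested over all rows with the edgeR 4.0.16 quasi-likelihood test (R 4.3.3; TMM, filterByExpr, Benjamini-Hochberg over all rows tested), with 6 libraries per comparison and no block, and the procedure was tested on simulated data. DESeq2 1.42.0 was an alternative. Sequence was read from hg38 with samtools 1.23.1 and compared with blastn 2.17.0. Annotation came from GENCODE 44, and 22 of 22 list rows with a GENCODE gene overlapped it. Exact intervals and floors cover counting error only.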

Additional observations from a re-analysis of the deposited data

Results flagged for a closer look

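HSALNG0085924 went in opposite directions in different fractions, with no overlap between control and siSSB libraries in any of them. The log2 fold change was -1.53 in total and -2.23 in cyto. In nuc it was 1.71 ± 0.75 (SE) without the filter on low counts, from 6 control and 24 siSSB counts. This nuclear value did not pass the threshold (edgeR adjusted p = 0.709). The difference between fractions was not tested, since the knockdown values chose this row.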

How the results depend on the processing

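Of 135 siSSB against control values of single members under an alternative, 126 moved by less than the replicate spread and 9 moved further. That spread was derived from the SE of the main edgeR fit, and no threshold was applied. Of the 9, 6 were in knockdown total under library size alone or the sum of rows of at most 500 nt (-2.26 for lnc-C11orf24-4, -0.95 and -0.96 for HSALNG0085924, -0.16 for LINC02260) and 3 left out 1 library: lnc-C11orf24-4 was at -3.42 without siSSB total replicate 3 and -2.15 without siSSB nuc replicate 1, and lnc-WISP1-2 at -4.93 without siSSB cyto replicate 2. Of 105 nuc against cyto values, 94 kept their direction and side of the threshold, 4 (lnc-C11orf24-4 under those scalings) also passed it, and 7 changed sign. For lnc-WISP1-2, nuc against cyto in control cells became -3.86 with library size alone, -2.67 with the sum of rows of at most 500 nt, -0.23 without the filter, and -0.03 and -0.05 without control nuc or control cyto replicate 1 (-0.05 to 0.53 over the libraries left out). For lnc-C11orf24-4 in siSSB cells it became 0.16 and 0.08 without siSSB nuc replicate 2 or 3 (range -0.7 to 0.16). The cause was not tested. Members called in nuc against cyto in control cells rose from 2 to 4 with library size alone or the small-row sum. Members called in knockdown cyto went from 3 to 1 under both scalings and to 2 with RLE size factors, and those in knockdown total from 3 to 2, HSALNG0085924 losing its call. With DESeq2 2 were called in total, where lnc-WISP1-2 had no adjusted p. Without the filter, lnc-C11orf24-4 was also called in knockdown nuc (1 in place of 0) and lnc-WISP1-2 in knockdown cyto (4 in place of 3).

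Rows called in knockdown total (186, of which 51 were higher) were 713 (625 higher) with library size alone, 691 with the small-row sum, 324 with DESeq2 and 626 without the filter. In knockdown nuc (26) they were 0, 0 and 67 with library size alone, the small-row sum and no filter. In knockdown cyto (55) they were 34 with RLE size factors, 13 with either of those sums, 157 with DESeq2, 248 without the filter and 148 in one fit over 18 libraries. In nuc against cyto they were 26438 and 26183 in control (6242 under TMM) and 25877 and 25575 in siSSB cells (6650), nearly all lower in nuc. Same-numbered libraries did not deviate together (r from -0.419 to 0.125), so the numbers were not taken to pair the samples. With the replicate block, calls were 199, 40, 4, 5940 and 6415 in the order knockdown total, nuc, cyto, nuc against cyto in control and in siSSB cells, and 0 members were called in knockdown cyto.

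Leaving out 1 library gave 69 to 303 rows in knockdown total, 0 to 37 in nuc, 2 to 45 in cyto, 5042 to 6146 in control and 5066 to 6339 in siSSB fractions. Members called ranged from 2 to 3, 0 to 0, 0 to 3, 2 to 2 and 2 to 2, and none was called in cyto without replicate 1 or 2 of either group. The largest share held by a smaller row was 2.05% when any shorter row counted. Shared words numbered 813 at 30 nt, 1535 at 20 nt and 367 at 40 nt. Keeping library sizes from before the filter was added after the counts of calls had been seen, with a closer match to an earlier count as the motive; it gave 6658 in place of 6650 calls in siSSB fractions and the same number in the other 4 comparisons, and was not adopted.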
